A study of Mus musculus with 10 samples.

Results

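Expression of 35 genes of cholesterol and fatty acid synthesis was compared in the terminal ileum of 5 unstressed control mice and 5 mice after subchronic mild social defeat. The genes were chosen by their function in these pathways, with earlier results of these data known. Each was represented by the probe set with the highest mean over the 10 arrays among those that carry its symbol alone. All 35 were measured, and all 35 were among the 13666 genes tested. All 10 animals were male C57BL/6JJmsSlc mice, 7 weeks of age, fed the purified AIN-93G diet and fasted for 3 h before the lower small intestine was taken. Stressed mice were placed as intruders with older ICR males, with contact of 5 min after the first bite on day 1, shortened by 0.5 min a day to 0.5 min on day 10. Controls are labelled unstressed, and how they were housed during those days is not given in the labels. Each mouse had 1 Affymetrix array, so n counts mice, and values are log2 expression values. Whole tissue was measured, so fewer cells of a type and less RNA per cell cannot be told apart.

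Cells make cholesterol from acetyl-CoA through mevalonate, isoprenoid diphosphates, squalene and lanosterol. When membrane sterol is low, the chaperone SCAP carries SREBP transcription factors from the endoplasmic reticulum to the Golgi, where they are cut free to switch on these enzymes, while INSIG proteins hold SCAP back when sterol is plentiful. Fatty acid synthesis starts from the same acetyl-CoA and is switched on mainly by SREBP-1c and by the sugar-sensing factor ChREBP. The small intestine both makes cholesterol and absorbs it from food and bile.

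SREBP acts at promoters together with the factors NF-Y, which binds the CCAAT box, and Sp1, which binds the GC box, so the promoters of the genes show where such letters lie. RefSeq promoters (build GRCm38.p6) were found for 28 of the 35 genes, and the 250 bases before the transcription start were searched on both strands. Sqle, Fdps, Fdft1, Stard4, Scd1, Scd2 and Fads1 had no promoter there and were not searched. The sterol response element TCACNCCAC was found in 1 of the 28, Hmgcs1, against 1.22% of all 27025 genes of the table. CCAAT was found in 23 of the 28 genes, 82.1%, and in all 13 sterol enzymes with a promoter in the table, against 37.5% of all genes. The GC box GGGCGG was found in 22 of the 28 genes, 78.6%, against 35.4% of all genes. A match describes letters only and not a bound site. The lack of a match to these exact letters in 250 bases does not show that a gene has no such element. Shown here are Hmgcs1, for its sterol response element, and Hsd17b7 and Fasn, the pair of genes whose groups did not overlap without control mouse 1. Capitals mark the sterol response element and CCAAT boxes in Hmgcs1 and CCAAT boxes in the others, with CCAAT on the opposite strand reading ATTGG. In Fasn 2 of the marked boxes overlap each other.
Hmgcs1 at chr13:119690101-119690350, plus strand: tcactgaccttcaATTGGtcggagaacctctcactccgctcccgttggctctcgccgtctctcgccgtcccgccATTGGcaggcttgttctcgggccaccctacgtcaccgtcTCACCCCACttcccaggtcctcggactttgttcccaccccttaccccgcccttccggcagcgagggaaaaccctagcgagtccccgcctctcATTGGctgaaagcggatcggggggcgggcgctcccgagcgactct
Hsd17b7 at chr1:169969206-169969455, minus strand: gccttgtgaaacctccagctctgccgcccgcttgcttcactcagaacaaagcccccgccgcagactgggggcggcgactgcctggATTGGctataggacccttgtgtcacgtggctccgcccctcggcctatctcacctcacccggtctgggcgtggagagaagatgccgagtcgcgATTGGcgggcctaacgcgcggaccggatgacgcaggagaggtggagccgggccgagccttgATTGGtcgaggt
Fasn at chr11:120824548-120824797, minus strand: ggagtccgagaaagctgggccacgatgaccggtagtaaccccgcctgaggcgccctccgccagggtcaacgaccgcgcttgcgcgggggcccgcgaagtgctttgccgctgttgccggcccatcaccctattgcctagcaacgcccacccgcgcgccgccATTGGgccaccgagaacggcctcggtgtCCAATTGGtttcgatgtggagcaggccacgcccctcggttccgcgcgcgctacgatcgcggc

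The array labelled control mouse 1 stood apart from the others and went against its tissue label. Its correlation with the other arrays was 0.918 to 0.947 across genes, against 0.975 to 0.995 among those 9. Fabp6, the ileal bile acid binding protein, was at 7.88 in that mouse and at 13.88 to 14.10 in the other 9. Car1, a carbonic anhydrase of the large intestine, was at 14.17 there, at 13.32 in stressed mouse 4 and at 4.95 to 7.41 in the other 8. Over 7 measured of 8 large intestine markers, of which 2 were above the filter floor, the log2 of the summed level was 14.20 in control mouse 1 and 6.59 to 7.63 in the other controls. It was 13.35 in stressed mouse 4 and 6.57 to 7.88 in the other stressed mice. In control mouse 1 and stressed mouse 4, Car1 made up most of the sum. Aqp8, also above the floor, was at 7.50 in control mouse 1, 7.26 in stressed mouse 4 and 4.15 to 4.49 in the other 8. Hoxd10, below the floor, was at 7.30, 4.46 and 2.34 to 2.99 in the same order. Hoxb13, Hoxd11, Hoxd12 and Hoxd13, also below the floor, were at 2.65 to 4.13 in those mice and 2.65 to 4.40 in the other 8. Fabp6 was at 13.95 in stressed mouse 4. Values are therefore given with all 10 arrays and with 9, without control mouse 1, and values without stressed mouse 4 as well are given where named.

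**Figure D1:**
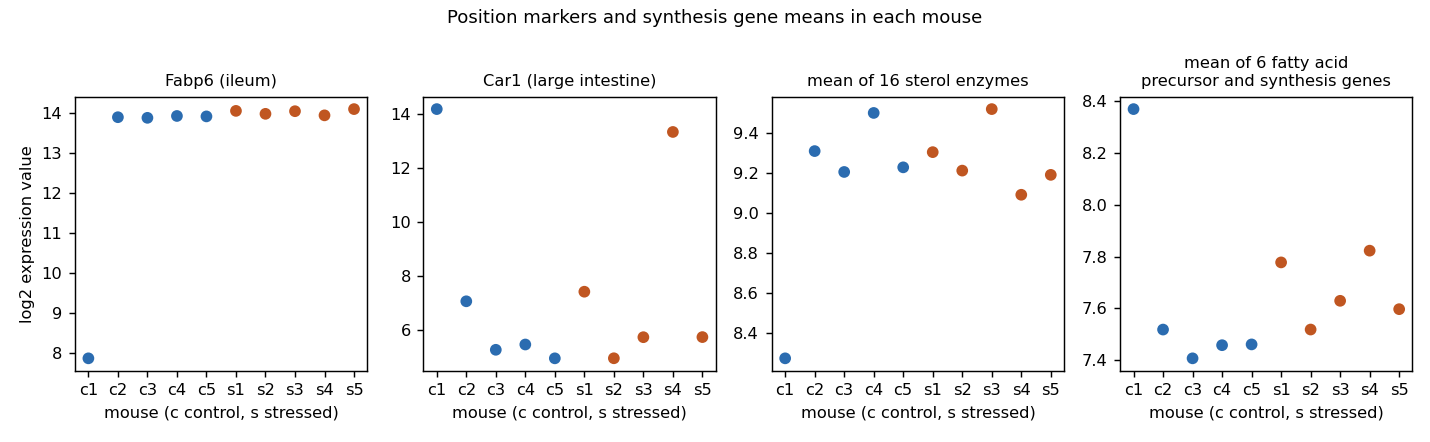
Log2 expression values (vertical axes, each with its own range) of the ileal marker Fabp6, the large intestine marker Car1, the mean of the 16 sterol enzymes and the mean of the 6 genes of fatty acid precursor supply and synthesis, in each control (blue) and stressed (orange) mouse; each point is 1 mouse. Control mouse 1 has the lowest sterol enzyme mean, 8.27, and the highest fatty acid mean, 8.37, and stressed mouse 4, the other mouse with high Car1, has the lowest sterol enzyme mean among the other 9, 9.09.

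None of the 35 genes differed between stressed and control mice at a limma adjusted p under 0.05, with or without control mouse 1. Over the 16 enzymes of cholesterol synthesis, the median difference (stressed minus control) was 0.18 on the log2 scale with 10 arrays and -0.01 without control mouse 1, and leaving out 1 further mouse gave -0.10 to 0.06. That median spans members on both sides of 0. Without control mouse 1, Sqle and Hsd17b7 were lower at an unadjusted p under 0.05, 2 of 16 (12.5%) against 6.56% of all genes. None was higher (0 of 16, against 11.4%). In either direction the share was thus 12.5%, below the 18.0% of all genes. Over 12 fatty acid genes, none of them called, the median difference was 0.09 with 10 arrays, 0.03 when stressed mouse 1 was left out of these, and 0.15 without control mouse 1. Fat cell markers also differed between mice: over 5 measured of 7, with Lep below the floor, the log2 of the summed level was 8.27 to 8.90 in control mice 2 to 5, 10.23 in control mouse 1, 9.43 in stressed mouse 4 and 8.50 to 9.45 in the other stressed mice. Over 6 T cell markers, with Cd2 below the floor, that sum was 8.07 in control mouse 1, 8.09 to 8.58 in control mice 2 to 5 and 7.92 to 7.98 in stressed mice. Over 6 ileum markers it was 11.32, 14.55 to 14.62 and 14.65 to 14.81 in the same order. Single markers were divided: without control mouse 1, Cd4 differed by 0.06 and Slc51b by -0.18. The part of these markers in the differences was not tested. The smallest p-values without control mouse 1 belonged to Fasn, which makes palmitate, to the sterol carrier Stard4 and to the sterol sensor subunit Insig2.

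With 10 arrays limma called 0 of all 13666 genes (0%), so that count says little of the 35, and 7.82% of all genes were at an unadjusted p under 0.05 against 1 of the 35 (2.86%), Stard4, which was higher in stressed mice as were 3.86% of all genes, with 3.96% lower. Without control mouse 1, 109 genes were called (0.798%; 0.263% higher and 0.534% lower in stressed mice) and 0 of the 35. At an unadjusted p under 0.05 there were 6 of the 35, or 17.1%, against 18.0% of all genes tested. Higher in stressed mice were 3 of them, Fasn, Stard4 and Acaca (8.57% against 11.4% of all genes), and lower were 3, Insig2, Hsd17b7 and Sqle (8.57% against 6.56%). The groups did not overlap for 2 genes without control mouse 1, Hsd17b7 and Fasn, or 5.71% against 7.24% of all genes (4.51% higher and 2.72% lower), and for 0 with 10 arrays, against 2.28%. By these counts the synthesis genes were near or below the share seen over all genes, except that 8.57% were lower at an unadjusted p under 0.05 against 6.56%. The difference was above 0 in 28 of the 35 with 10 arrays, against 50.9% of all genes, and in 21 of the 35 without control mouse 1, against 56.2%. The smallest adjusted p among them was 0.408 with 10 arrays, for Stard4, and 0.106 without control mouse 1, for Fasn.

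**Figure D2:**
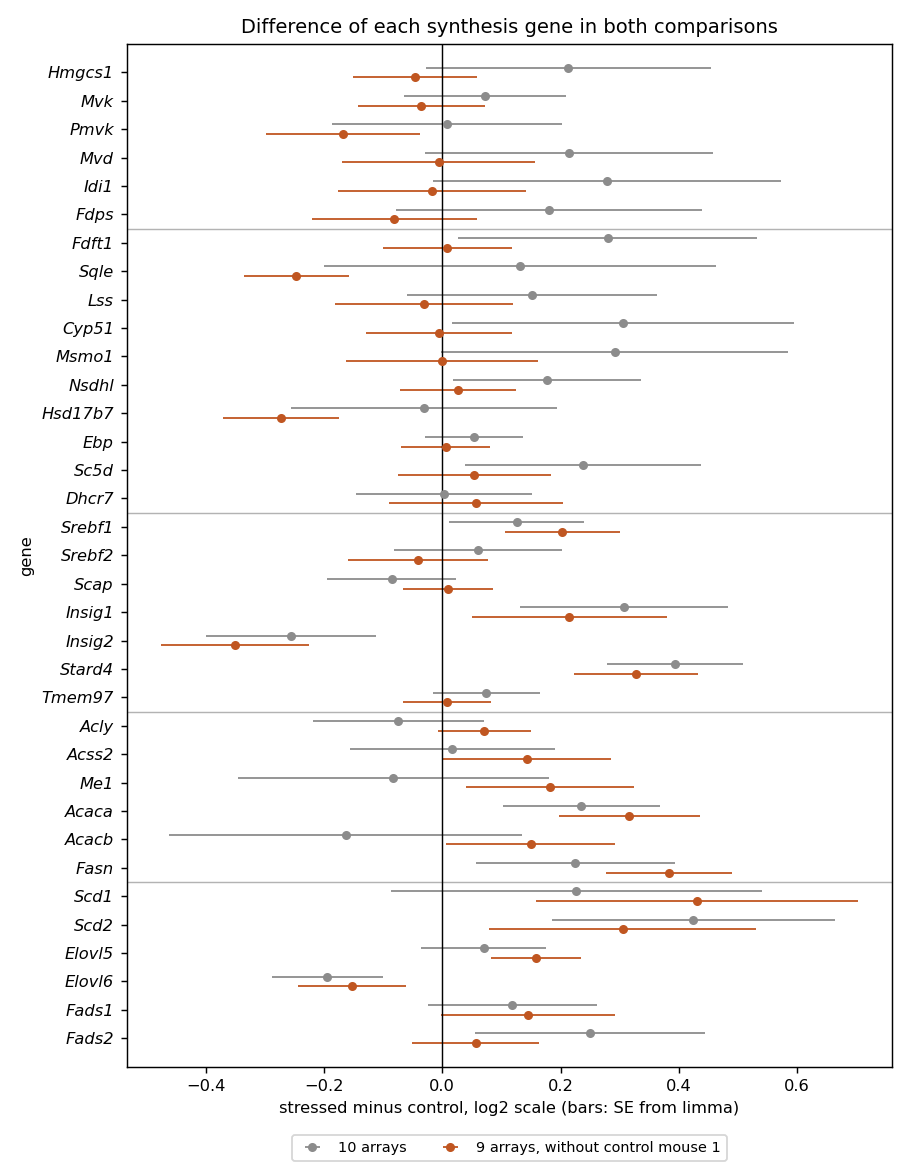
Difference of each of the 35 genes, stressed minus control on the log2 scale (horizontal axis), with bars of 1 SE from limma, for 10 arrays (grey) and for 9 arrays without control mouse 1 (orange); lines part the 5 role groups. In 15 of the 16 sterol enzymes the grey point lies above 0, against 50.9% of all genes. Without control mouse 1, 5 of the 16 sterol enzymes and 11 of the 12 fatty acid genes at the bottom lie above 0, against 56.2% of all genes.

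The mevalonate arm turns acetyl-CoA into farnesyl diphosphate. Hmgcs1, the synthase that makes HMG-CoA, was at 10.70, 11.94, 11.88, 12.15 and 11.99 in control mice 1 to 5. Hmgcs1 was at 12.00, 11.95, 12.20, 11.66 and 11.91 in stressed mice 1 to 5. Control mouse 1 was the lowest of the 10, and the other 9 overlapped between groups. The difference was 0.21 ± 0.24 (SE) with 10 arrays and -0.05 ± 0.10 (SE) without control mouse 1. The kinases Mvk and Pmvk, the decarboxylase Mvd, the isomerase Idi1 and the synthase Fdps lay the same way with the probe sets used. All 6 genes of the arm were above 0 with 10 arrays, against 50.9% of all genes. Without control mouse 1 all 6 were below 0, where 56.2% of all genes were above 0. Those differences ran from -0.17 for Pmvk to -0.01 for Mvd, each with an interval that included 0. Other probe sets above the floor did not all follow. Without control mouse 1 those of Hmgcs1 were at 0.04, 0.01, -0.05 and, near the floor, 0.66. Idi1 was at 0.07, Mvk at -0.11 and Mvd at -0.13. With 10 arrays the other Mvk probe set was at -0.0075. The probe set used for Hmgcs1 is of a type that can take up related sequences, as are those used for Fdft1, Hsd17b7 and Elovl5.

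The squalene and sterol arm joins farnesyl units into squalene and shapes lanosterol into cholesterol. Sqle, the oxygen-using epoxidase that is a rate-limiting step of the arm, was at 8.42, 10.40, 10.19, 10.38 and 10.26 in control mice 1 to 5. Sqle was at 10.06, 10.13, 10.24, 9.86 and 10.01 in stressed mice 1 to 5. Without control mouse 1, stressed mouse 3 alone reached into the control range. The difference was 0.13 ± 0.33 (SE) with 10 arrays, where limma gave an adjusted p of 0.946, and -0.25 ± 0.09 (SE) without control mouse 1, where limma gave an adjusted p of 0.184. Its direction thus depended on control mouse 1, and without stressed mouse 4 as well it was -0.20 ± 0.09 (SE).

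Hsd17b7, a reductase in the removal of methyl groups from sterols, was at 7.29, 8.53, 8.48, 8.44 and 8.55 in control mice 1 to 5. Hsd17b7 was at 8.27, 8.35, 8.20, 7.91 and 8.40 in stressed mice 1 to 5. Every stressed mouse lay below control mice 2 to 5 and above control mouse 1. The difference was -0.27 ± 0.10 (SE) without control mouse 1, where limma gave an adjusted p of 0.182 and a 95% interval of -0.49 to -0.06. It was -0.03 ± 0.23 (SE) with 10 arrays. Stressed mouse 4, where the large intestine markers Car1 and Aqp8 were high, was the lowest of the stressed group. Without it and control mouse 1 the difference was -0.19 ± 0.08 (SE, adjusted p = 0.328 by limma). The part of those markers in the result was not tested. The probe set used for Hsd17b7 is of a type that can take up related sequences, and the other 2 above the floor differed by -0.26 and -0.18 without control mouse 1.

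The other 8 enzymes of this arm include Fdft1 (squalene synthase), Lss (lanosterol synthase), Cyp51 (lanosterol demethylase) and Msmo1 (a methylsterol oxidase). The rest are Nsdhl, Ebp, Sc5d and Dhcr7 (the reductase of the last step). With the probe sets used, all 8 differed by between -0.03 and 0.06 without control mouse 1. Their other probe sets above the floor differed by -0.23 for Fdft1 to 0.38 for Lss, with Sc5d at up to 0.31. For Cyp51, at 8.19 in control mouse 1, the other controls spanned 9.59 to 10.05 and the stressed mice 9.54 to 10.08. Its difference was -0.01 ± 0.12 (SE), and it was 0.31 ± 0.29 (SE) with 10 arrays. For the probe sets used of all 16 sterol enzymes, the 95% interval without control mouse 1 lay within 0.5 of 0 on the log2 scale. The farthest bound in either direction was 1.40-fold. Each is an interval of a single gene, with no correction for the number of genes.

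Many of the 16 enzymes were high or low in the same mice. In control mouse 1, 15 of the 16 (93.8%) were at the lowest level of the 10 mice, against 18.6% of all genes, and Dhcr7 was the exception. The levels of those 15 were below the mean of the other 4 controls by 1.18-fold for Ebp to 3.71-fold for Sqle, and the median difference of all 16 was -1.15 on the log2 scale. Among control mice 2 to 5, mouse 4 was the highest in 14 of the 16 (87.5%), against 16.4% of all genes. Among the stressed mice, mouse 3 was the highest in 10 (62.5%), against 16.6%, and mouse 4 was the lowest in 7 (43.8%), against 15.3%. The mean of the 16 was 9.31, 9.21, 9.50 and 9.23 in control mice 2 to 5 and 9.30, 9.21, 9.52, 9.09 and 9.19 in stressed mice 1 to 5. The highest mouse of either group thus had nearly the same mean, and the groups had means of 9.31 ± 0.13 (SD, n = 4) and 9.26 ± 0.16 (SD, n = 5). These mice were picked out for their high or low values after those were seen.

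**Figure D3:**
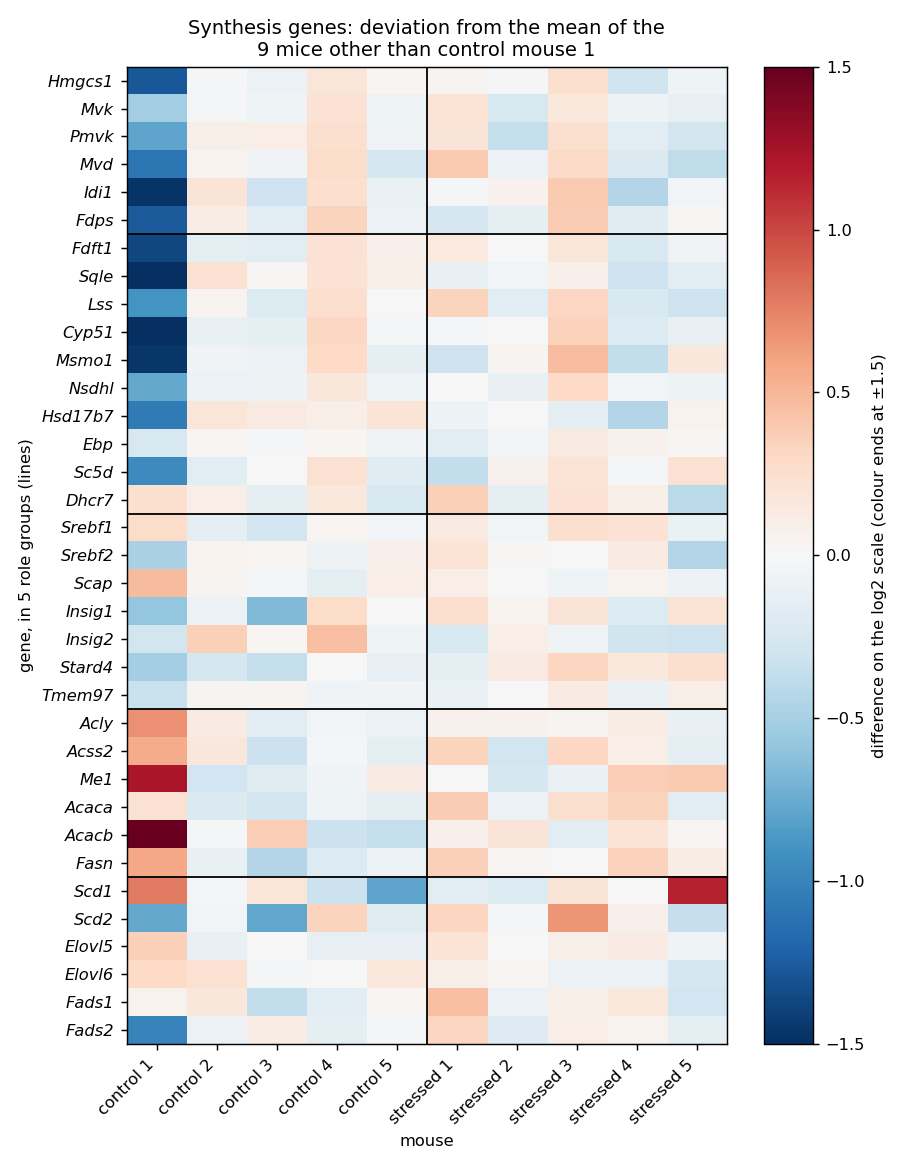
Deviation of each of the 35 genes (rows, with lines between the 5 role groups) in each mouse (columns, controls left of the line) from the gene's mean over the 9 mice other than control mouse 1, on the log2 scale, with colours from blue (lower) to red (higher) that end at 1.5. Control mouse 1 is blue in 15 of the 16 sterol enzymes and red in all 6 genes from Acly to Fasn, and control mouse 4 and stressed mouse 3 are both mostly pale red over the sterol enzymes.

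Among the sensors and regulators, Stard4 and Insig2 had the smallest p-values. Stard4, which carries sterol between membranes in the cytosol, was at 9.43, 9.69, 9.59, 9.94 and 9.82 in control mice 1 to 5. Stard4 was at 9.80, 10.08, 10.27, 10.10 and 10.19 in stressed mice 1 to 5. Every stressed mouse but mouse 1 lay above all 5 controls. The difference was 0.39 ± 0.12 (SE) with 10 arrays, where limma gave an adjusted p of 0.408, and 0.33 ± 0.10 (SE, adjusted p = 0.145 by limma) without control mouse 1, or 1.26-fold. It had the same direction in every setting tried, where limma gave adjusted p from 0.0860 to 0.813, and the gene's other 2 probe sets differed by 0.58 and 0.51 with 10 arrays. Without control mouse 1 and stressed mouse 4 the difference was 0.32 ± 0.12 (SE).

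Insig2, which retains SCAP in the endoplasmic reticulum, was at 7.99, 8.62, 8.29, 8.71 and 8.20 in control mice 1 to 5. Insig2 was at 8.04, 8.36, 8.21, 7.97 and 7.95 in stressed mice 1 to 5. Control mice 2 and 4 lay above every stressed mouse, and the others overlapped. The difference was -0.26 ± 0.14 (SE, adjusted p = 0.734 by limma) with 10 arrays and -0.35 ± 0.12 (SE, adjusted p = 0.179 by limma) without control mouse 1. All 3 probe sets of Insig2 were lower in stressed mice in both comparisons, by -0.39 to -0.29 without control mouse 1. Insig1, its SREBP-induced relative, differed by 0.31 ± 0.18 (SE) and 0.22 ± 0.16 (SE), above 0 in both.

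The SREBP genes themselves and SCAP had small differences. Srebf1, whose product drives lipogenic genes, differed by 0.20 ± 0.10 (SE) without control mouse 1 and by 0.13 ± 0.11 (SE) with 10 arrays. Srebf2, the main driver of cholesterol synthesis, differed by -0.04 ± 0.12 (SE) and 0.06 ± 0.14 (SE) in the same order. Scap differed by 0.01 ± 0.08 (SE) and -0.09 ± 0.11 (SE), and Tmem97, a sterol-responsive membrane protein, by 0.01 ± 0.07 (SE) and 0.07 ± 0.09 (SE). For all of these, the 95% interval included 0 in both comparisons.

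In the supply of precursors and the synthesis of fatty acids, none of the 6 genes was called. Fasn and Acaca alone reached an unadjusted p under 0.05, without control mouse 1 and both higher. They were 2 of 6 (33.3%), against 18.0% of all genes in either direction and 11.4% higher. Over all 12 fatty acid genes they were 16.7%, near the 18.0% of all genes. The difference was above 0 in 6 of 6 without control mouse 1, against 56.2% of all genes, and in 3 of 6 with 10 arrays, against 50.9%. Fasn, the fatty acid synthase, was at 8.42, 7.73, 7.40, 7.63 and 7.76 in control mice 1 to 5. Fasn was at 8.20, 7.88, 7.84, 8.19 and 7.95 in stressed mice 1 to 5. Control mouse 1 was the highest of the 10, and every stressed mouse lay above the other 4 controls. The difference without control mouse 1 was 0.38 ± 0.11 (SE), 1.30-fold, where limma gave an adjusted p of 0.106 and a 95% interval of 0.15 to 0.62. It was 0.23 ± 0.17 (SE, adjusted p = 0.794 by limma) with 10 arrays, and 0.34 ± 0.11 (SE, adjusted p = 0.239 by limma) without stressed mouse 4 as well.

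Acaca, the acetyl-CoA carboxylase that commits carbon to fatty acids, was at 7.79, 7.35, 7.28, 7.50 and 7.42 in control mice 1 to 5. Acaca was at 7.94, 7.47, 7.80, 7.90 and 7.40 in stressed mice 1 to 5. Stressed mice 1, 3 and 4 lay above every control, and stressed mice 2 and 5 lay within the range of the controls. The difference was 0.32 ± 0.12 (SE, adjusted p = 0.201 by limma) without control mouse 1 and 0.24 ± 0.13 (SE, adjusted p = 0.738 by limma) with 10 arrays. For both Fasn and Acaca the highest stressed mice were 1 and 4. Stressed mouse 1 had the largest 3' to 5' ratio of control transcripts, a measure of RNA quality, at 1.23 for Actb and 1.02 for Gapdh on the log2 scale, against 0.64 to 0.95 and 0.24 to 0.54 in the other 9. Stressed mouse 1 was the highest of its group in 7 of the 12 fatty acid genes (58.3%), against 29.0% of all genes. It also had the highest level among stressed mice of all 6 smooth muscle markers, all above the floor, among them Acta2 at 13.00 and Myh11 at 11.41. The log2 of their summed level was 14.24 there, 13.64 to 13.96 in control mice 2 to 5 and 14.72 in control mouse 1. Of the fat cell markers, Adipoq was at 6.83 in stressed mouse 1, the lowest of the stressed group. Cidec, at 5.73, and Retn, at 6.11, were lowest there too. Plin4 was not, at 6.93 against 6.55 to 7.04 in the other stressed mice. The part of RNA quality and of large intestine, smooth muscle and fat cell markers in these results was not tested.

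The other 4 genes of this group are Acly, which cuts citrate into acetyl-CoA, Acss2, which makes acetyl-CoA from acetate, the NADPH-producing malic enzyme Me1, and Acacb, the carboxylase that curbs fatty acid oxidation. Their differences without control mouse 1 were 0.07 to 0.18, each with a 95% interval that included 0. With 10 arrays they were -0.16 to 0.02, with Acly, Me1 and Acacb below 0. All 6 genes of the group were above the mean of the other controls in control mouse 1, by 1.32-fold for Acaca to 2.96-fold for Acacb. Of all 13666 genes, 5585 were below that mean in this mouse. All of the 6 but Acaca were at their highest of the 10 mice in control mouse 1. Over all 12 fatty acid genes 7 were highest there (58.3%), against 34.6% of all genes. In stressed mouse 4, too, all 6 lay above the mean of the other stressed mice, where 6034 of all 13666 genes lay below it. Stressed mouse 4 departed from its group in the same direction as control mouse 1 in 29 of the 35 genes (82.9%), against 64.6% of all genes.

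Desaturases and elongases set the double bonds and length of the fatty acids. Scd1, the main stearoyl-CoA desaturase, was at 10.30, 9.50, 9.70, 9.20 and 8.73 in control mice 1 to 5. Scd1 was at 9.35, 9.31, 9.71, 9.51 and 10.68 in stressed mice 1 to 5. The groups overlapped, with stressed mouse 5 the highest of the 10 and control mouse 5 the lowest. The difference was 0.23 ± 0.31 (SE) with 10 arrays and 0.43 ± 0.27 (SE, adjusted p = 0.426 by limma) without control mouse 1. Stressed mouse 5 carried much of it: without that mouse the difference was -0.01 with 10 arrays and 0.19 without control mouse 1.

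Scd2, a related desaturase, was at 10.53, 11.25, 10.51, 11.63 and 11.11 in control mice 1 to 5. Scd2 was at 11.61, 11.27, 11.95, 11.38 and 10.94 in stressed mice 1 to 5. The groups overlapped, and stressed mouse 3 and control mouse 4, the highest in most sterol enzymes, were the highest of their groups for Scd2 too. The difference was 0.42 ± 0.24 (SE, adjusted p = 0.736 by limma) with 10 arrays and 0.30 ± 0.23 (SE, adjusted p = 0.503 by limma) without control mouse 1. Control mouse 3, at 10.51, weighed on it, and without that mouse as well it was 0.10.

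Of the elongases, Elovl5 differed by 0.16 ± 0.08 (SE) without control mouse 1 and by 0.07 ± 0.11 (SE) with 10 arrays. Without that mouse Elovl6, which extends palmitate, differed by -0.15 ± 0.09 (SE). Elovl6 was the single fatty acid gene below 0 there, and it was below 0 with 10 arrays too, at -0.19 ± 0.09 (SE). The desaturases of polyunsaturated fatty acids, Fads1 and Fads2, differed by 0.15 ± 0.15 (SE) and 0.06 ± 0.11 (SE) without control mouse 1. With 10 arrays they differed by 0.12 ± 0.14 (SE) and 0.25 ± 0.19 (SE), and Fads2 was at its lowest in control mouse 1. The 95% intervals of Elovl5, Elovl6, Fads1 and Fads2 included 0 in both comparisons. Over all 35 genes without control mouse 1, the interval lay within 1 on the log2 scale of 0 for 34, all but Scd1, whose upper bound was 1.03.

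**Figure D4:**
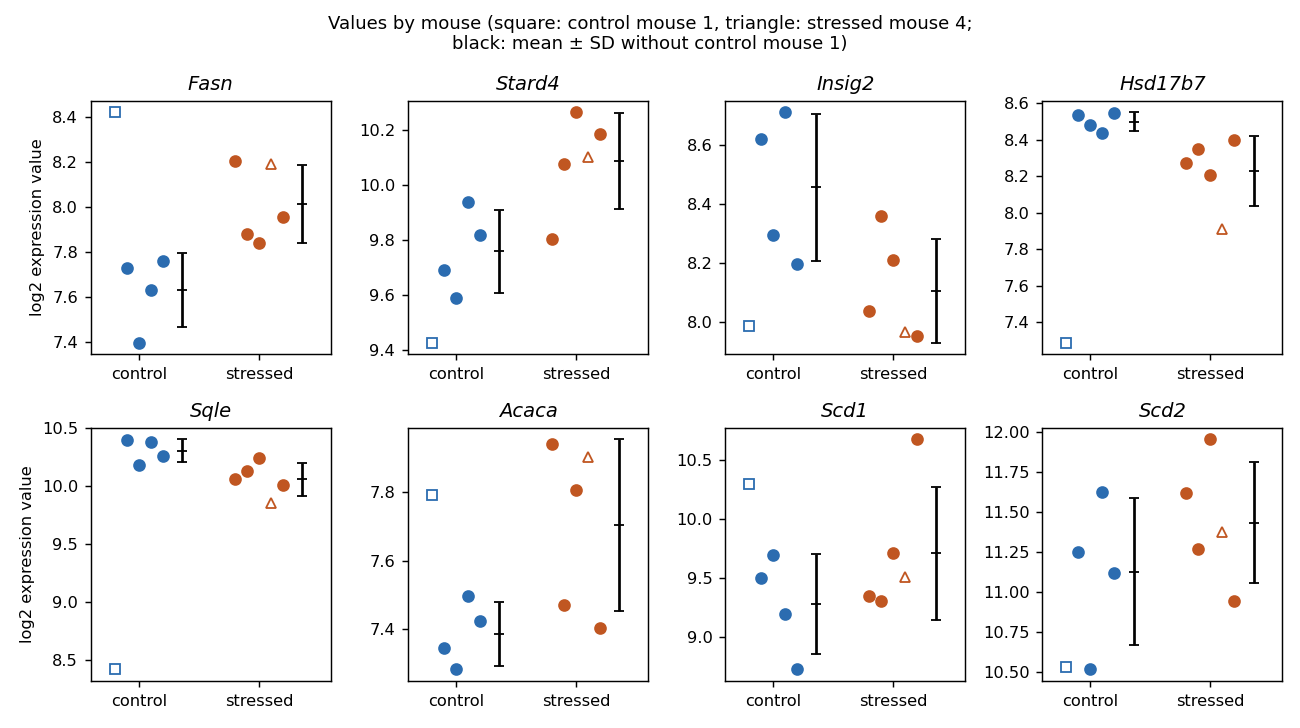
Log2 expression values (vertical axes, each with its own range) of 8 genes in each control (blue) and stressed (orange) mouse, with control mouse 1 as an open square, stressed mouse 4 as an open triangle, and the mean ± SD without control mouse 1 in black. Without the square, the stressed points lie wholly above the controls for Fasn and wholly below for Hsd17b7, and the groups overlap in the other 6 panels.

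The wider pathway was followed in 59 further genes of sterol and fatty acid handling, of which 46 had a probe set with their symbol alone and 41 were tested. Limma called 0 of the 41 in either comparison, and 7 (17.1%) were at an unadjusted p under 0.05 without control mouse 1 and 2 (4.88%) with 10 arrays, against 18.0% and 7.82% of all genes. The groups did not overlap for 5 of the 41 (12.2%) without control mouse 1, Mlxipl, Mcat, Hacd4, Acsl3 and Gpam, against 7.24%, and for 2 (4.88%) with 10 arrays, Mlxipl and Mcat, against 2.28%. Acsl3, which activates long-chain fatty acids, was at 6.47 to 7.19 in control mice 2 to 5 and at 7.25 to 8.40 in stressed mice. It was at 10.03 in control mouse 1 and highest among stressed mice in mouse 4, the pair with high Car1. Its difference was 0.87 ± 0.22 (SE, adjusted p = 0.0867 by limma) without control mouse 1, 0.25 ± 0.57 (SE) with 10 arrays and 0.72 ± 0.20 (SE) without stressed mouse 4 as well. The part of large intestine markers was not tested.

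Mlxipl, which encodes ChREBP, was higher in every stressed mouse than in any control, with or without control mouse 1. It was at 6.60 in control mouse 1, 7.84 to 8.09 in the other controls and 8.10 to 8.37 in stressed mice, so that the nearest mice of the 2 groups were almost level. The difference was 0.57 ± 0.24 (SE, adjusted p = 0.605 by limma) with 10 arrays and 0.30 ± 0.08 (SE) without control mouse 1, where the adjusted p by limma was 0.0863 to 0.212 over the alternatives. Mcat, the mitochondrial malonyl transferase, was lower in every stressed mouse than in any control, by -0.15 ± 0.06 (SE, adjusted p = 0.605 by limma) with 10 arrays.

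The cholesterol exporter Abca1 differed by 0.44 ± 0.12 (SE, adjusted p = 0.107 by limma) without control mouse 1. Mylip, the ligase that degrades the LDL receptor, differed by 0.42 ± 0.14 (SE), Hacd4, a dehydratase of the elongation cycle, by 0.29 ± 0.09 (SE), and the acyltransferase Gpam by 0.23 ± 0.08 (SE). The other, dimmer probe set of Gpam went the other way, at -0.17, and the mean of both gave 0.03. Abca1, Mylip, Hacd4 and Gpam were at their highest of the 10 mice in control mouse 1, and their differences with 10 arrays were 0.12 to 0.28. Among stressed mice, Abca1 and Gpam were highest in mouse 4, at 8.38 and 8.22, and Mylip and Hacd4 were highest in other mice. Without stressed mouse 4 as well, the probe set used for Gpam differed by 0.19. The part of large intestine markers in these genes was not tested. Npc1l1, the intestinal cholesterol uptake protein, was at 4.01 in control mouse 1 and at 10.34 to 10.84 in the other 9, and differed by -0.22 ± 0.09 (SE, adjusted p = 0.220 by limma) without that mouse and by 1.12 ± 1.14 (SE) with it.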

How the data were processed

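The authors deposited 1 table of log2 expression values for 10 arrays, 1 per mouse, and per the submitters' processing notes RMA (robust multi-array average) made them. Which software ran it, and its version, is not given in the sources used here. The values run from 1.22 to 14.4, which with RMA's normal output is the basis for reading them as base 2. RMA brings the arrays to a like distribution and understates changes near background. Arrays have no sequencing depth, so precision is limited by how many there are.

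Groups came from the sample titles. Of 45101 probe sets, 64 were array controls, 34945 carried 1 gene symbol, 932 several and 9160 none in the platform annotation. The lowest 40 percent of probe sets by mean were left out, a floor of 4.15. The comparison of both groups used limma 3.58.1 (lmFit and eBayes) under R 4.3.3, with 2-sided p-values adjusted by the Benjamini-Hochberg method over 13666 genes and calls at an adjusted p under 0.05. The code was tested on simulated data.

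Genes and lists were chosen with earlier results of these data known. Full values went to genes called, then to those at an unadjusted p under 0.05 in either comparison (up to 16), then to the 6 with the largest difference, and to 8 other pathway genes by p. Alternatives covered the filter, probe sets, normalization, variance model, array weights, a replicate block and each mouse left out.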

Additional observations from a re-analysis of the deposited data

Results flagged for a closer look

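In 43 genes, the 35 synthesis genes and 8 of the wider pathway, the highest and the lowest mouse were set against the rest of their group, for all controls, for control mice 2 to 5 and for stressed mice. Of these 129 groups, 20 held a mouse whose gap to its neighbour was past the 95% limit of Dixon's test, which chance alone passes in about 1 in 20. In 17 of the 20 that mouse was control mouse 1, the array whose position markers went against its label. It was far below the other controls for these sterol and fatty acid genes, given with the nearest other control: Hmgcs1 at 10.70 (nearest 11.88), Pmvk at 7.27 (nearest 8.00), Fdft1 at 9.31 (nearest 10.51), Sqle at 8.42 (nearest 10.19), Cyp51 at 8.19 (nearest 9.59), Msmo1 at 8.74 (nearest 10.05), Nsdhl at 8.57 (nearest 9.24), Hsd17b7 at 7.29 (nearest 8.44), Srebf2 at 7.78 (nearest 8.20), Tmem97 at 7.61 (nearest 7.89), Fads2 at 7.68 (nearest 8.54). Of the wider pathway it was far below for Mlxipl at 6.60 (nearest 7.84), Npc1l1 at 4.01 (nearest 10.53). It was far above the other controls for Me1 at 8.49 (nearest 7.38), Elovl5 at 9.83 (nearest 9.48) and, of the wider pathway, for Acsl3 at 10.03 (nearest 7.19), Gpam at 8.40 (nearest 7.93).

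The other 3 concerned Nsdhl and Elovl5. Nsdhl was at 9.63 in stressed mouse 3, where the next stressed mouse was at 9.33. Among control mice 2 to 5 Nsdhl was at 9.51 in mouse 4, against at most 9.28 in the other 3. In that same set Elovl5 reached 9.48 in mouse 3, where the next was at 9.36.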

How the results depend on the processing

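None of the 35 genes was called in any setting run in either comparison. Leaving out each mouse in turn took the median difference of the 16 sterol enzymes from 0.18 with 10 arrays to between -0.01, without control mouse 1, and 0.29, and from -0.01 without control mouse 1 to between -0.10, without stressed mouse 3, and 0.06, without control mouse 4, so its sign was not stable. That of the 12 fatty acid genes stayed above 0, at 0.03 to 0.15 with 10 arrays and 0.13 to 0.21 without control mouse 1. The count over all genes with 10 arrays was 2 with the mean of a gene's probe sets, 2 with quantile normalization of the tested genes and 41 with array weights. It was 0 to 109 when 1 mouse was left out, 109 without control mouse 1 and 2 without stressed mouse 2. Without control mouse 1 it was 171 with quantile normalization, 169 with trend and robust moderation and 6 to 154 when 1 further mouse was left out. It was 19, 16 and 58 without control mice 2, 3 and 4, and 32, 21, 6 and 14 without stressed mice 1, 3, 4 and 5. With 10 arrays Hsd17b7 differed by 0.0063 with the mean of its probe sets, and Sqle by -0.18 and Npc1l1 by -0.010 with array weights, opposite in direction to the values reported. Leaving out each mouse in turn gave -0.27 to 0.048 for Hsd17b7, -0.25 to 0.25 for Sqle, -0.22 to 1.49 for Npc1l1, -0.015 to 0.43 for Scd1 and -0.017 to 0.87 for Acsl3. The low ends for Hsd17b7, Sqle and Npc1l1 came without control mouse 1. The cause was not tested.

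Titles share replicate numbers, but no source used here says that the numbers pair mice. Correlations of same-numbered deviations were -0.30 to 0.28, and 2 of 5 were over 0.1. Those of different numbers were -0.30 to 0.41. So few pairs cannot show whether mice were paired. With a replicate block 0 genes were called with 10 arrays and 95 without control mouse 1, where stressed mouse 1 then has no partner, and 0 of the 35 genes in both. Acsl3 had an adjusted p of 0.0418 by limma under that block without control mouse 1.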

Other observations

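Sterol transport genes beyond those described had small differences once control mouse 1 was left out. Abcg5 and Abcg8, which form the pump that returns sterols to the gut lumen, differed by -0.08 ± 0.13 (SE) and 0.08 ± 0.11 (SE) without control mouse 1, and by 0.99 ± 0.92 (SE) and 0.49 ± 0.36 (SE) with 10 arrays. Abcg5 was at 4.73 in control mouse 1 and at 9.82 to 10.53 in the other 9 mice.

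Fat cell markers varied over the mice. Adipoq, the fat cell hormone adiponectin, was at 9.49, 7.74, 7.13, 7.62 and 6.08 in control mice 1 to 5 and at 6.83, 7.51, 8.00, 8.38 and 8.28 in stressed mice 1 to 5. Control mouse 5, the lowest for Adipoq, was also the lowest for Scd1, at 8.73, and for Thrsp, a lipogenic gene of fat, at 5.43. The other fat cell markers above the floor were divided. Cidec was lowest in control mouse 5 too, at 5.36. Plin4 was at 6.82 there, the highest of control mice 2 to 5, and Retn was lowest in stressed mouse 1, at 6.11. The part of these markers in the differences of Scd1 was not tested.

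Probe sets of a gene did not always point the same way. Of 21 synthesis genes with several probe sets above the floor, 6 had opposite signs without control mouse 1 (Cyp51, Fdft1, Hmgcs1, Idi1, Lss and Srebf2) and 4 with 10 arrays (Fdft1, Hsd17b7, Me1 and Mvk). For Lss the probe set used differed by -0.03 without control mouse 1 and a dimmer probe set by 0.38.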
